A study of Mus musculus with 13 samples.

Results

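Keratin genes were read out by ChIP-seq for 2 histone marks, NUP210 and the nuclear pore in 4T1 cells, a mouse mammary tumor line that arose in a BALB/cJ mouse. Members were taken by symbol, as Krt followed by a digit, which leaves out the keratin-associated Krtap genes. In the reference annotation (GRCm38.p6) 55 symbols matched. Of these, 54 lie in 2 clusters, with 27 in the type I cluster of chromosome 11 (99232761 to 100269951, 1037 kb) and 27 in the type II cluster of chromosome 15 (101348315 to 102032026, 684 kb). The other symbol is the pseudogene Krt8-ps. In all, 27 keratins were in at least 1 of the 6 peak lists, out of 18562 genes listed, and these were 14 of the type I cluster and 13 of the type II cluster. The other 27 of the 54 were in none.

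Control cells (sg-Ctrl) carried a non-targeting guide RNA with Cas9, and Nup210 KO cells (KO-N13) are 1 clone grown from a single cell after Cas9 cutting within Nup210. H3K4me3 and H3K27me3 were profiled in both, and NUP210 and the nuclear pore complex (NPC, an antibody to several pore proteins) in sg-Ctrl cells. Every condition has 1 library. No test over replicates was therefore possible, the knockout and the choice of clone cannot be told apart, and the 95% intervals given are exact Poisson or binomial intervals that cover counting error only.

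Keratins are the intermediate filament proteins of epithelial cells. Each filament is built from pairs of an acidic type I and a basic type II protein, and the genes of each type sit side by side in their own cluster, except that the type I gene Krt18 lies beside its partner Krt8 at the end of the type II cluster. Pairs mark cell states: Krt8 with Krt18 in simple epithelium such as the luminal layer of the mammary gland, Krt5 with Krt14 in basal and myoepithelial cells, Krt1 with Krt10 in the upper layers of the epidermis, and others in the hair and its root sheath. H3K4me3 is found at the starts of active or poised genes. H3K27me3 is laid down by Polycomb repressive complex 2, often in broad domains over genes that are silent in a cell type.

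Gene starts of 5 keratins are shown because they stand for the chromatin states found. Krt7, Krt8 and Krt18 had H3K4me3 in both cell types, Krt25 had H3K27me3 in sg-Ctrl cells alone and Krt2 had it in KO cells alone. Each sequence runs 5′ to 3′ on the strand of the gene, from 250 bases before to 50 bases after the start given by RefSeq (GRCm38.p6). Capitals mark every TATAAA and GGGCGG, searched on both strands, so that CCGCCC is GGGCGG on the other strand. TGANTCA was searched as well and is in none of the 5. In Krt8 the capitals are overlapping matches of TATAAA on opposite strands.
Krt7 (chr15:101412153-101412452, plus strand): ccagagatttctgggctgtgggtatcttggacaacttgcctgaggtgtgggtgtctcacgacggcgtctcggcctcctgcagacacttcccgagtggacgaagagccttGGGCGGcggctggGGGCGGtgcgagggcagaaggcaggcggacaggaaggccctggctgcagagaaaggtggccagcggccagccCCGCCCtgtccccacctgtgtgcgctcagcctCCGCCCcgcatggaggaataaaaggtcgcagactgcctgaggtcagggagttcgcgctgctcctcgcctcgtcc
Krt8 (chr15:102004293-102004592, minus strand): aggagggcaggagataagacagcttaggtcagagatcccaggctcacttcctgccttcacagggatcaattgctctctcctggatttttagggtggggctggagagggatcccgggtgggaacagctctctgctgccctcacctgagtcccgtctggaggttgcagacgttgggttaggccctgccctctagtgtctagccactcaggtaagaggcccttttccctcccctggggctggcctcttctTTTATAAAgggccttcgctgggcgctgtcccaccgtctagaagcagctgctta
Krt18 (chr15:102027966-102028265, plus strand): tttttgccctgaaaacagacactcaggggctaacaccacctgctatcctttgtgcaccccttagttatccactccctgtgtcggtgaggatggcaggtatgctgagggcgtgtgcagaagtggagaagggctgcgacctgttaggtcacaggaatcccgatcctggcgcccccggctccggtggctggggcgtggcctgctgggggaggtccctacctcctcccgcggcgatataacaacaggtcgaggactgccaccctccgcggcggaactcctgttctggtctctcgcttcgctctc
Krt25 (chr11:99322902-99323201, minus strand): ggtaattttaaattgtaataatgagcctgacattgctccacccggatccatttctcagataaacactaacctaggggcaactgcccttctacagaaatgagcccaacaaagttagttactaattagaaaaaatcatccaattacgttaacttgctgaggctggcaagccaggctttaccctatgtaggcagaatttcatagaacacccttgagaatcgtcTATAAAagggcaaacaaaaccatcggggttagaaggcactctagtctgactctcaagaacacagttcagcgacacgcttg
Krt2 (chr15:101818120-101818419, minus strand): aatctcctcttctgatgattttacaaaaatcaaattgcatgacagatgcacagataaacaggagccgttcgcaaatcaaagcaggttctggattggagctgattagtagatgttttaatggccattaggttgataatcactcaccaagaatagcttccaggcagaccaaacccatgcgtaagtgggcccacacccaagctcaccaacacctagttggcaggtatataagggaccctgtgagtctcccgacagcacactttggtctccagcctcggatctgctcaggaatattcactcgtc

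The windows of Krt7, Krt8 and Krt18 lay wholly within H3K4me3 peaks of both lists. That of Krt25 lay wholly within an H3K27me3 island of sg-Ctrl cells and that of Krt2 wholly within an island of KO cells. Krt7 held 21 CpG dinucleotides and Krt18 held 17, while Krt8, Krt25 and Krt2 held 6 each, against a median of 7 over 32851 RefSeq promoters of the same length. The table held 37 promoters of 36 keratins. TATAAA was in 19 of these 37 (51.4%) and in 13.6% of all promoters, GGGCGG in 2 (5.41%) and in 35.7% of all, and TGANTCA in 2 (5.41%) and in 7.81% of all. By state, TATAAA was in 12 of 16 promoters of keratins with H3K27me3 in either list, in 2 of 5 with H3K4me3 and in 5 of 16 with neither. The 5 include Krt10, whose window no H3K4me3 peak covers and which holds 1 of the 2 matches, and Krt14, whose entry is for another start than that of the peak lists. These matches describe the sequence and were not measured as sites.

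An H3K4me3 peak within 4 kb of the gene start was listed for the same 7 keratins in both cell types: Krt7, Krt8, Krt18, Krt19, Krt10, Krt14 and Krt80. That is 7 of 54, where 52.5% of 21896 protein-coding genes had such a peak in sg-Ctrl and 52.5% in KO. Of 6 simple epithelial keratins 4 had the mark, of 7 basal and activated keratins 1 (Krt14), and of 13 suprabasal keratins 2 (Krt10 and Krt80). None was listed among 9 keratins of the inner root sheath and companion layer, 15 hair keratins and 4 others. With the gene start inside the peak, 6 keratins were left in both lists, 2 of the type I and 4 of the type II cluster. Krt10 was the one lost. Krt5, the type II partner of Krt14 in basal cells, was in none of the 6 lists.

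The labelled cell type was set against markers. Beside 52.5% of protein-coding genes in each cell type, H3K4me3 was listed at 10 of 10 luminal epithelial markers in both. It was at 1 of 8 basal or myoepithelial markers in sg-Ctrl and 2 of 8 in KO. Of 7 mesenchymal markers 5 had it in both, and of 4 blood markers 0. H3K27me3 was listed on 0 luminal, 2 basal and 2 blood markers in both, and on 3 mesenchymal markers in sg-Ctrl and 1 in KO (19.6% and 20.2% of protein-coding genes). The mesenchymal marker Twist1 had both marks in sg-Ctrl. These lists overlap with the keratins, since 4 luminal and 4 basal markers are keratins themselves.

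To compare cell types and genes, reads of a peak were divided by the relative library size and by the peak's length in kb (scaled reads per kb). Depth in KO relative to sg-Ctrl was 1.27 for H3K4me3 and 3.16 for H3K27me3. Listed H3K4me3 peaks summed to 26236314 reads (sg-Ctrl) and 24873356 reads (KO), and listed H3K27me3 islands to 7719297 and 26811061.

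Krt8, the type II keratin of simple epithelium, had a 6.2 kb peak over its start in both cell types, with 2016 reads in sg-Ctrl and 1986 in KO. Krt18, its type I partner, had 1761 and 1724 reads. At Krt7, a type II keratin of ductal epithelium, there were 3125 and 2255 reads, and at Krt19, a type I keratin of simple epithelium without a usual type II partner of its own, 805 and 889. These 4 starts were marked in both cell types, and their level in sg-Ctrl ran from 526 scaled reads per kb at Krt7, through 307 at Krt8 and 296 at Krt18, to 146 at Krt19. The counting intervals of Krt8 (293 to 320) and Krt18 (283 to 311) overlap, so their order is not resolved. Krt7 was near the median of all genes (543) and the other 3 were below it, with Krt19 higher than only 5.77% of the genes with the mark in both lists.

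Krt14, the type I keratin of basal cells, had the weakest mark. Its peak held 280 reads in sg-Ctrl against 15 of IgG and 146 reads in KO against 15 of IgG. This gave 77.6 and 38.7 scaled reads per kb, higher than 1.73% and 0.0820% of the genes. Krt80, a type II keratin of several epithelia, had 1740 reads in a 7.8 kb peak in sg-Ctrl. In KO 2 peaks took its place, 1 of 3.4 kb with 664 reads over the start and 1 of 2.6 kb with 149 reads beside it. Krt10, the type I keratin of upper epidermal layers, had the densest peak of the keratins in sg-Ctrl, with 3926 reads over 3 kb (1234 scaled reads per kb, higher than 97.1% of genes). In KO it held 2735 reads over 5.2 kb (390 scaled reads per kb). That peak does not cover the listed Krt10 start and ends 1964 bp from it in sg-Ctrl and 964 bp in KO. Krt10 is on the minus strand, and the sg-Ctrl peak (99384401 to 99387400) runs past the far end of the gene at 99385254. The KO peak (99383201 to 99388400) does so as well. Neither is a mark over the Krt10 start.

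**Figure D1:**
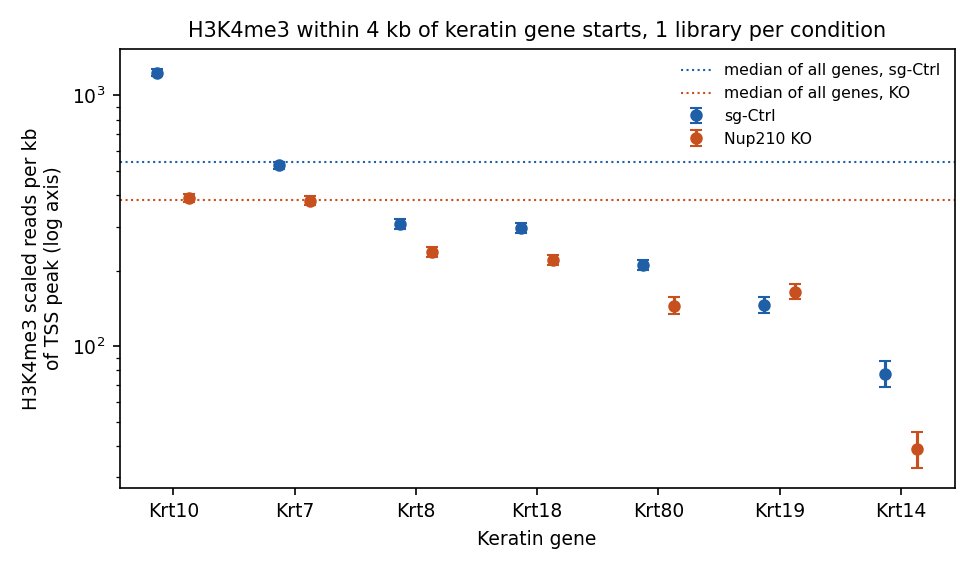
H3K4me3 peaks within 4 kb of the start of 7 keratins (that of Krt10 does not cover the start), as scaled reads per kb of peak on a log axis, in sg-Ctrl (blue) and Nup210 KO cells (orange), 1 library each. Bars are 95% Poisson intervals and dotted lines the medians of all genes; Krt10 lies above the sg-Ctrl median, Krt14 is lowest in both, and only Krt19 is higher in KO per kb (its total reads are not).

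How the keratins compared with all genes between cell types depended on the measure. In scaled reads per kb, the log2 ratio of KO over sg-Ctrl had a median of -0.47 over the 7 keratins and -0.50 over 12197 genes. In total scaled reads of the peak, not per kb, it had a median of -0.82 over the keratins and -0.32 over all genes, so the keratins lay near all genes per kb and 0.49 below them in total. Per kb, the ratio was below 1 at 6 of the 7 keratins, against 88.7% of all genes. It was -0.37 at Krt8 (interval -0.46 to -0.28), -0.43 at Krt18 (-0.52 to -0.33) and -0.47 at Krt7 (-0.55 to -0.39). Krt19 stood on the other side of 0, at 0.18 (0.04 to 0.32), above 93.8% of the genes. Scaled by the reads of shared peaks the median of all genes moved to -0.08, Krt7 to -0.046, Krt18 to -0.00434, Krt8 to 0.06 and Krt19 to 0.60. Scaling moves all genes alike, so per kb Krt7, Krt18, Krt8 and Krt19 differed from the median of all genes by 0.03, 0.07, 0.13 and 0.68, whereas in total reads Krt7 differed from it by -0.49, Krt18 by -0.05, Krt8 by -0.04 and Krt19 by 0.12. The sign of Krt8 follows the scaling. That of Krt19 follows the measure, with -0.20 in total reads, as its peak went from 5.2 to 4 kb.

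A ratio of at most 0.5 was found at 2 of the 7, Krt10 and Krt14, where 9.66% of all genes had one, and a ratio of at least 2 at none (0.525% of all genes). The peak listed for Krt10, which is not over its start, had a log2 ratio of -1.66 (-1.73 to -1.59). This was lower than all but 0.492% of genes, and -1.16 relative to the median. Per kb and relative to the median, Krt10 was the only keratin at least 2-fold lower, against 0.926% of genes. On this measure 0 of the 7 were at least 2-fold higher, against 2.2% of genes. The total reads of Krt10 gave -0.87 (-0.94 to -0.80), since the KO peak is wider, which is no longer past 2-fold. Krt14 had -1.005 (-1.30 to -0.71), an interval that spans the 2-fold line, -0.58 when scaled by shared peaks and -1.28 (-1.58 to -0.99) in total reads. Krt80 had -0.54 per kb for the peak over its start, while both KO peaks together held 813 reads, a log2 ratio of -1.06 per kb and -1.44 in total reads. A ratio of at most 0.5 in the total of all peaks at the start was found for 7.29% of genes. In total reads of the densest peak, relative to the median of all genes, Krt80 had -1.41, Krt14 -0.96 and Krt10 -0.54. On that measure Krt80, not Krt10, was the keratin past 2-fold, and the share of all genes past it is not given here. Without the median taken off, Krt80 and Krt14 had a ratio of at most 0.5 in these total reads, as did 7.63% of genes.

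**Figure D2:**
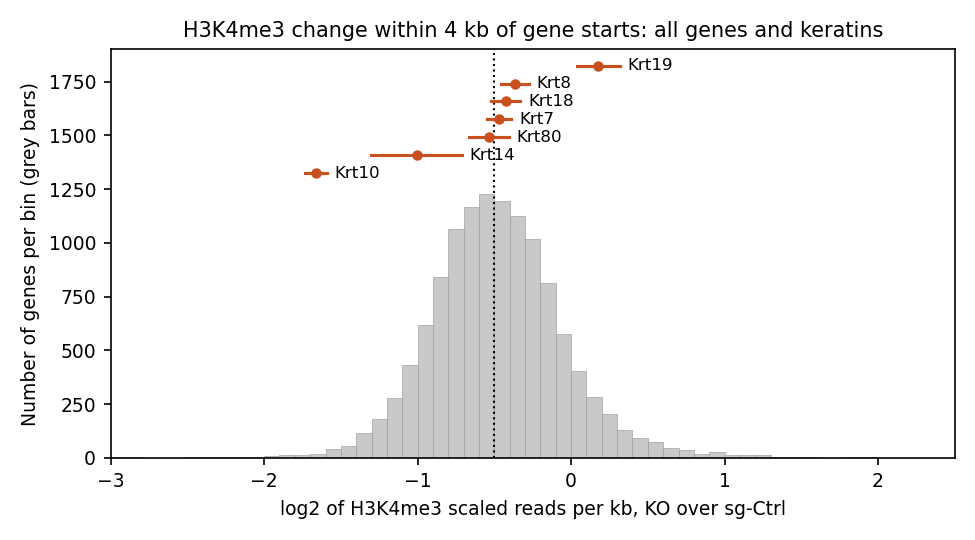
Log2 ratio of KO to sg-Ctrl in H3K4me3 scaled reads per kb for all 12197 genes (grey bars, genes per bin) and for the 7 keratins (orange points with 95% counting intervals, stacked for legibility). The dotted line is the median of all genes (-0.50); Krt7, Krt8, Krt18 and Krt80 sit near it, Krt10 far to its left and Krt19 to its right.

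H3K27me3 islands, the broad regions called over gene bodies, were listed on 16 keratins in sg-Ctrl and on 10 in KO. Of protein-coding genes, 19.6% had one in sg-Ctrl and 20.2% in KO. No keratin had both marks in any list, and 5.81% of genes with H3K4me3 in sg-Ctrl also had H3K27me3 there. Krt5, Krt7, Krt8, Krt14, Krt18 and Krt19 had no H3K27me3 in either cell type. The clusters moved in opposite directions. In the type I cluster 10 keratins had an island in sg-Ctrl and 1 in KO, with 0 in both, and in the type II cluster 6 had one in sg-Ctrl and 9 in KO, with 6 in both and so 0 in sg-Ctrl alone (9.09% of the genes of chromosome 15 listed in sg-Ctrl had none in KO). On chromosome 11 as a whole 16.7% of protein-coding genes had an island in sg-Ctrl and 17.3% in KO, and on chromosome 15 these shares were 17.8% and 18.9%. Neighbouring keratins share islands, so the counts of genes are not counts of separate regions.

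In the type I cluster, all 10 keratins listed in sg-Ctrl were without an island in KO, where 18.3% of the listed genes of chromosome 11 and 14.8% of all listed genes had none in KO. They were Krt25, Krt26 and Krt28 of the inner root sheath, the hair keratins Krt31, Krt33b, Krt34 and Krt40, Krt12 of the cornea, Krt20 of the intestinal lining, and Krt222. The only one listed in KO, Krt24, had none in sg-Ctrl. Of the genes of chromosome 11 listed in KO, 21.7% had none in sg-Ctrl. The islands on these 10 keratins numbered 8, and 0 of the 8 met a listed island of KO cells. Of all sg-Ctrl islands 18.5% met none, and of those on chromosome 11 17.9% did. The lists hold only islands that meet a gene body. A KO island in the part of these 8 that lies outside genes would therefore not be seen.

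The widest of these islands lay on Krt25 and Krt26 (26 kb, 99308001 to 99334000), with 613 reads against 177 of IgG, a fold of 4.09 as the authors' peak caller gave it. It covered 100% of the body of Krt25 and 58.2% of Krt26. The island on Krt28 (24 kb) held 537 reads and that over the start of Krt20 (24 kb) held 649, with folds of 2.28 and 3.55. Krt12 was covered in full by an island of 14 kb with 246 reads against 208 of IgG, a fold of 1.40, the weakest of the 8. Krt222 had 143 reads over 7 kb (fold 2.19), and the island that reached Krt40 by 2.78% of its body had 187 reads (fold 1.57). Farther along, 1 island of 12 kb on Krt33b and Krt34 held 532 reads (fold 3.45) and 1 of 4 kb at Krt31 held 166 (fold 3.02). The former covered 62.0% of the body of Krt33b and 15.5% of Krt34, and the latter 9.09% of Krt31. Folds of the 8 islands thus ran from 1.40 to 4.09 with a median of 2.65. In KO, Krt24 had an island of 7 kb with 547 reads against 72 of IgG (fold 2.84), which covered 17.6% of its body.

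Over the whole type I span, islands numbered 15 in sg-Ctrl and 6 in KO, and the covered length was 279 and 78 kb, a ratio of 0.280. Scaled reads in these islands had a ratio of 0.280 as well, and their density was the same within counting error, 35.3 scaled reads per kb in both (34.6 to 36.1 and 34.5 to 36.1). From Krt222 to Krt40 the cover was 95.2 kb in sg-Ctrl and 7 kb in KO, and from Krt33a to Krt42 it was 16 kb and 0 kb. In the stretch of Krtap genes between them, which encode matrix proteins of the hair shaft, it was 168 and 71 kb. There 4 of the 7 sg-Ctrl islands on other genes met a KO island. Covered length on chromosome 11 as a whole had a ratio of 1.16, and over all chromosomes 1.19. Depth in KO was 3.16 times that in sg-Ctrl, and the part of depth in this difference was not tested. The lists give no reads where no island was called, and ratios at single genes were therefore not formed. Islands that meet no gene body are not listed, so the covered length of either cluster counts listed islands only.

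**Figure D3:**
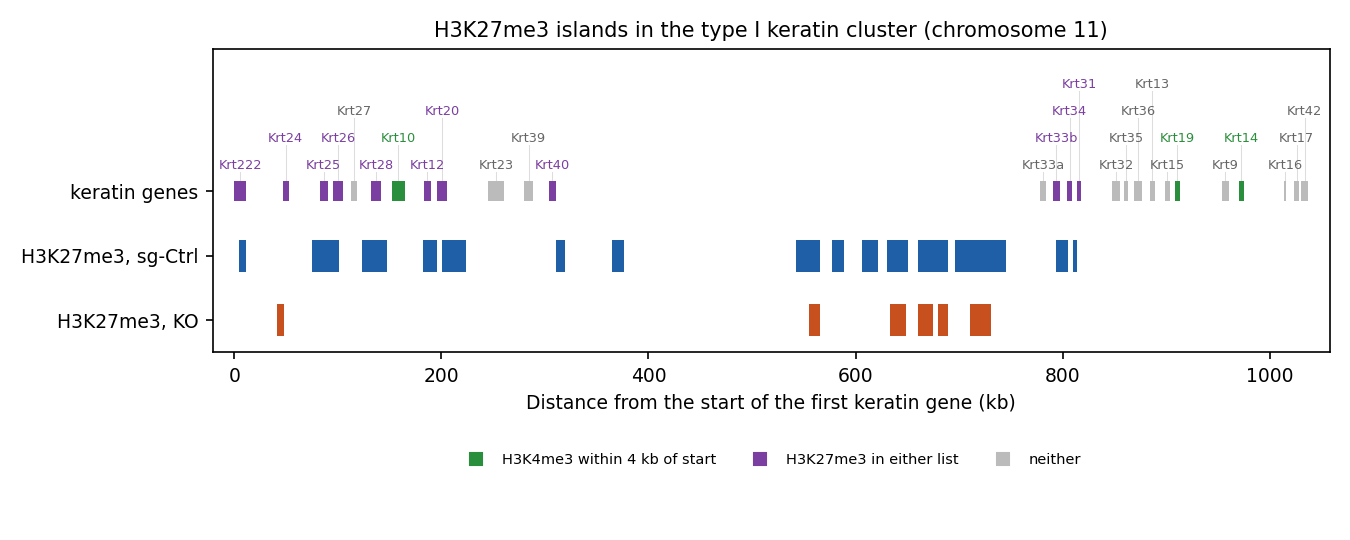
Map of the type I cluster, in kb from the start of the first keratin gene (Krt222), with H3K27me3 islands of sg-Ctrl (blue) and KO cells (orange) and keratin genes colored by mark. Of 15 islands in sg-Ctrl and 6 in KO, most of the latter lie on the Krtap genes in the middle.

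In the type II cluster, islands numbered 5 in sg-Ctrl and 6 in KO, and all 5 of sg-Ctrl met one of KO. The covered length went from 106 to 211 kb, a ratio of 1.99, and scaled reads had a ratio of 1.86, with 41.8 and 39.1 scaled reads per kb of island. Chromosome 15 as a whole had a ratio of covered length of 1.25. All islands met the stretch from Krt75 to Krt76, where 9 of 12 keratins were listed in KO. This stretch held the 106 kb of sg-Ctrl and 198 of the 211 kb of KO, the rest lying just past its ends. The 10 keratins from Krt80 to Krt90, which include Krt7 and the type II hair keratins, and the 5 from Krt4 to Krt18 had none. Depth and cover moved together here, with 3.16 times the depth in KO, and the part of depth in the wider islands was not tested.

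Keratins of this cluster with an island in KO alone were Krt1 and Krt2, type II keratins of the epidermis, and Krt76, a type II keratin of the mouth lining. Of the listed genes of chromosome 15, 18% had one in KO alone, and of all listed genes 17.2%. Krt1 and Krt2 lay under the same island as Krt72 and Krt73 of the root sheath. It spanned 12 kb with 288 reads in sg-Ctrl (fold 6.30) and 72 kb with 5026 reads in KO (fold 5.12), at 28.3 (25.2 to 31.8) and 26.1 (25.4 to 26.8) scaled reads per kb. The densities differed by less than the counting error, with a log2 ratio of -0.12 (-0.29 to 0.06), while the width in KO was 6 times that in sg-Ctrl. Krt1, Krt2 and Krt73 were each covered over 100% of their body in KO, against 0 for Krt1 and Krt2 and 7.68% for Krt73 in sg-Ctrl.

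The island on Krt6a and Krt6b, type II keratins induced in wounded epidermis, was 10 kb wide with 367 reads in sg-Ctrl and 28 kb wide with 3877 reads in KO. This island was denser in KO (log2 ratio 0.26, 0.10 to 0.41). It covered 6.77% of Krt6b in sg-Ctrl and 100% in KO, and 1.67% of Krt6a in both. These genes are close copies of each other, and how reads that fit both were placed is not given in the sources used here. Of the 6 keratins listed in both cell types, Krt6b and Krt73 had a covered length at least 2-fold greater in KO, where 11.3% of genes in both lists did, and 0 had one 2-fold smaller (6.94%). The cover of Krt75 went from 28.4% to 44.1%, and that of Krt72 (45.03%) and Krt77 (78.0%) was the same in both.

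At Krt77 the island went from 15 to 23 kb, with 295 and 1949 reads, and reached Krt76. Its density was higher in KO (log2 ratio 0.45, 0.27 to 0.63). A further KO island of 17 kb lay on Krt76 with 1080 reads (fold 5.68), and 53.3% of that gene was covered. At Krt75 there were 110 reads over 3 kb in sg-Ctrl and 370 over 5 kb in KO, with a lower density in KO (log2 ratio -0.65, -0.96 to -0.33). The densest island of this cluster in both lists was on the genes Gm5414, Gm5477 and Gm5478 between Krt75 and Krt6b. Their symbols fall outside the rule used here, so they were not counted as keratins, whatever they encode. It had the same start and end in both cell types (66 kb), with 2689 and 9792 reads and 499 of IgG in both, a log2 ratio of 0.20 (0.14 to 0.27).

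**Figure D4:**
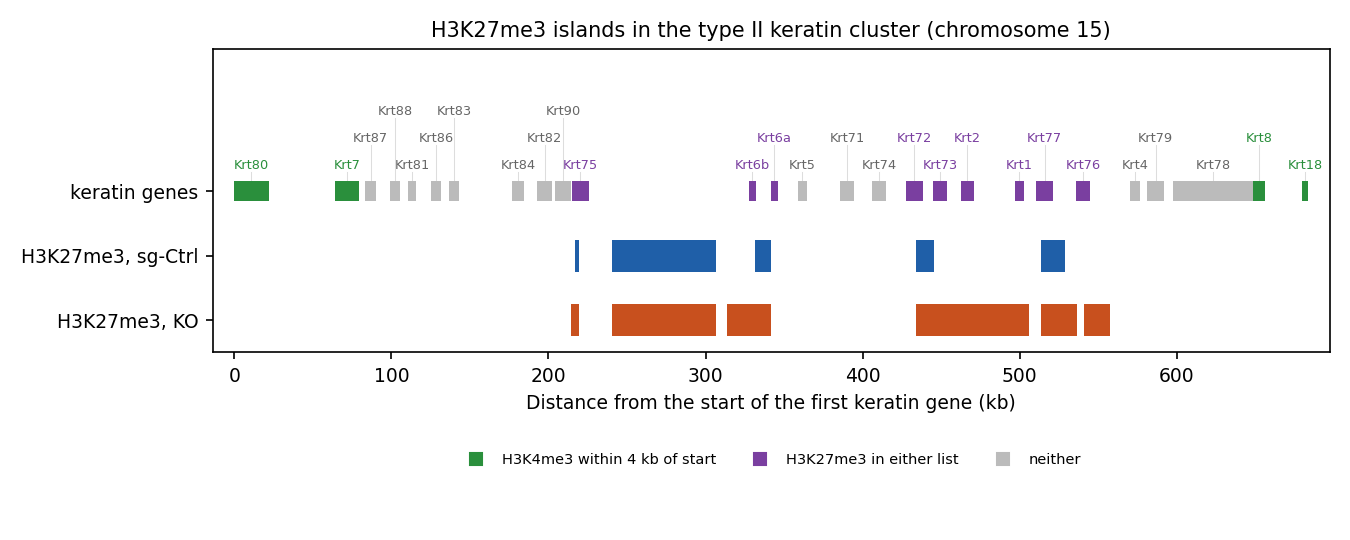
Map of the type II cluster, in kb from the start of the first keratin gene (Krt80), with H3K27me3 islands of sg-Ctrl (blue) and KO cells (orange) and keratin genes colored by mark. The covered length is 106 kb in sg-Ctrl and 211 kb in KO, within and just past the stretch from Krt75 to Krt76, with no island at Krt7, Krt80, Krt8 or Krt18.

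Krt5 lay in a gap between islands, 17.1 kb from the nearest on its left and 69.1 kb from the nearest on its right, in both lists. The distance from the last island to the start of Krt8 was 127 kb in sg-Ctrl and 98.3 kb in KO, and that from the start of Krt7 to the first island 153 and 151 kb. The H3K4me3 peaks of Krt7, Krt8 and Krt18 were thus well apart from the listed islands in both cell types. Islands that meet no gene body are not listed, so these distances and the gap at Krt5 are to listed islands only.

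**Figure D5:**
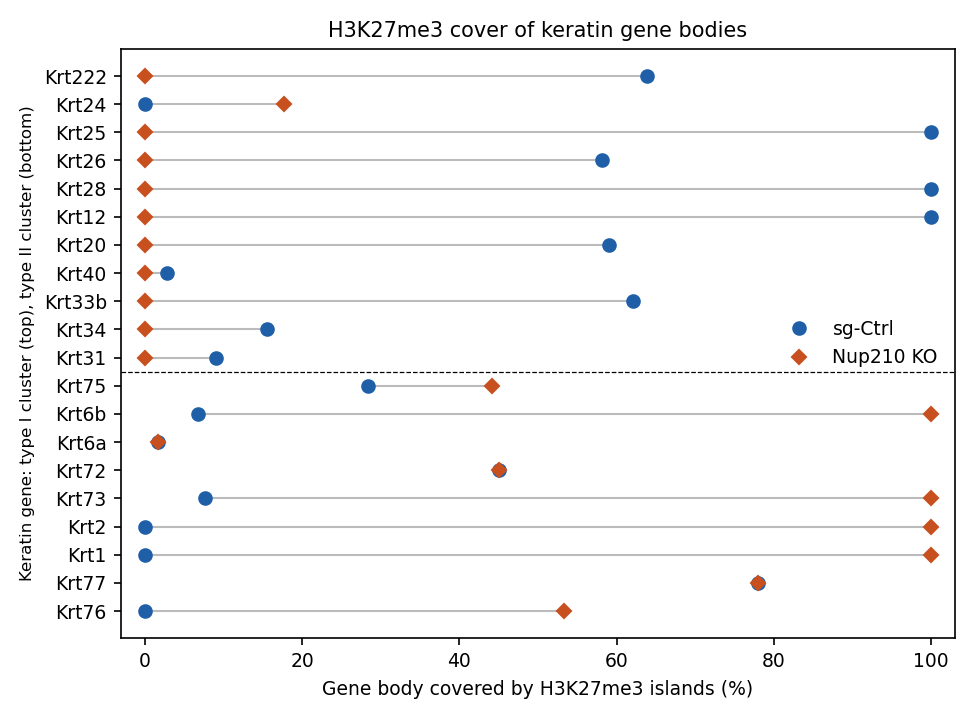
Percent of the body of each of the 20 keratins with H3K27me3 in either list that was covered by islands in sg-Ctrl (blue circles) and KO cells (orange diamonds), with the type I cluster above the dashed line and the type II cluster below it. Above the line 10 of 11 genes are at 0 in KO, and below it 6 of 9 have more cover in KO and 3 have the same.

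By type of keratin, and beside 19.6% of protein-coding genes in sg-Ctrl and 20.2% in KO, the inner root sheath and companion layer group had H3K27me3 on 6 of 9 genes in sg-Ctrl and 3 in KO, and the hair group on 4 of 15 and 0. The suprabasal group went the other way, from 2 of 13 (Krt12 and Krt77) to 5 (Krt24, Krt1, Krt2, Krt76 and Krt77). The basal and activated group had it on 2 of 7 in both, Krt6a and Krt6b, and the simple epithelial group on 1 of 6 in sg-Ctrl (Krt20) and on 0 in KO. With so few genes, counts such as 4 of 15, 2 of 13, 2 of 7 and 1 of 6 are near the share of all genes. The 4 hair keratins were covered over 2.78% (Krt40) to 62.0% (Krt33b) of their body in sg-Ctrl. Groups and clusters overlap, since the hair keratins marked are all of the type I cluster and 4 of the 5 suprabasal keratins marked in KO are of the type II cluster.

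NUP210 and NPC were measured in sg-Ctrl cells. Of 54 keratins, 1 had a NUP210 peak and 0 had an NPC peak, where 25.9% and 23.5% of protein-coding genes had one. Both the counts and the shares take every listed peak, with no limit on FDR or fold. Gene length was not taken into account, so a lack of peaks beyond that of genes as short was not tested. The single peak, on Krt20 (99437001 to 99446000), held 176 reads against 168 of IgG, with a fold of 1.04 and an FDR of 0.362 by the authors' caller, which does not pass an FDR of 0.05. Krt5, Krt7, Krt8, Krt14, Krt18 and Krt19 had no peak of either. The type II cluster had no NUP210 or NPC peak on any listed gene, while the type I cluster had 5 NUP210 and 2 NPC peaks, of which 4 and 2 lay in the Krtap stretch. Of the 2 NPC peaks, 1 on Gm11595 held 237 reads against 473 of IgG, a fold of 0.827, and so was not above IgG.

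Genes that work with keratins were read in the same way, beside 52.5% of protein-coding genes with H3K4me3 in each cell type and 9.66% of genes with an H3K4me3 ratio of at most 0.5. Of 19 genes of desmosomes and hemidesmosomes, the junctions that anchor keratin filaments, 13 had H3K4me3 in sg-Ctrl and 12 in KO, and the 12 in both had a median log2 ratio of -0.41, with 2 ratios of at most 0.5. The densest in sg-Ctrl were Dst (-1.08), Pkp2 (-1.19) and Dsg2 (-0.81), against -0.50 for all genes. Of 16 transcription factors known to act on keratin genes, 12 were marked in both, with a median of -0.22 and none past 2-fold. The densest were Tfap2a (-0.79), Klf5 (-0.79) and Grhl2 (-0.29). Of 16 other intermediate filament genes, 7 were marked in sg-Ctrl and 9 in KO, with a median of -0.23 over 7, led in density by the lamins Lmnb2 (-0.77), Lmnb1 (-0.23) and Lmna (-0.84). H3K27me3 was listed on 4 desmosome genes in both cell types, on 3 regulators in sg-Ctrl and 2 in KO, and on 2 other filament genes in both, beside 19.6% of protein-coding genes in sg-Ctrl and 20.2% in KO. These counts are near those shares.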

How the data were processed

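ChIP-seq peak lists of 6 libraries were used. RNA-seq is not analysed here. The authors called islands with SICER in each library against IgG (windows of 200 bp for H3K4me3 and 1000 bp otherwise) and kept those that meet a gene body or, for H3K4me3, lie within 4 kb of a gene start. The deposited values are raw counts of ChIP and IgG reads, p-values, FDR, and folds over IgG, a ratio scaled by library size. H3K4me3 and H3K27me3 share 1 rabbit IgG library. Bowtie2 and mm10 are named in the submitters' processing notes, and for 22 of 27 keratins the listed start or end was at most 50 bp from GRCm38.p6. From the counts and folds the library ratio to IgG was recovered (1.06 and 1.35 for H3K4me3 and 0.847 and 2.68 for H3K27me3, sg-Ctrl and KO), and reads were divided by it. The densest TSS peak of a gene was used. Total depth is unknown; only its ratios and the reads in listed peaks can be given. Promoter sequences are from RefSeq.

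Named were all keratins with H3K4me3, those with H3K27me3 in 1 list alone or cover differing 2-fold, 6 simple or basal keratins, and at most 3 densest genes of other lists. The members and lists were chosen with earlier results of these data known. Alternatives were FDR up to 0.01, folds from 2 up, cover of 50% of the body, other scalings and other spans. The H3K4me3 ratios, their intervals and the library scaling were tested on simulated counts, and the covered length on a small made-up example. H3K27me3 islands at unequal depth were not simulated. Software was scipy 1.17.1, pandas 2.3.3 and numpy 2.4.6 in Python 3.11.15, with matplotlib 3.10.9 for plots.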

Additional observations from a re-analysis of the deposited data

How the results depend on the processing

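No paired analysis was possible because each antibody and cell type has a single ChIP-seq library; RNA-seq is not analysed here. In all, 100 alternative values over 28 results were computed. Of these, 69 stayed within 1.5 times the value (counts and ratios) or its counting interval, and 0 turned the direction of a ratio past 2-fold. The 69 include values that the setting could not change, so they are not 69 separate checks. An FDR of at most 0.01 removed no histone mark peak of the keratin clusters, where the highest FDR by the authors' caller was 3.1e-07. Summing all peaks at a start changed the ratio of Krt80 alone. Among keratin H3K4me3 ratios per kb, only those of Krt10 and Krt14 were past 2-fold and so could have turned. The sign of the H3K4me3 log2 ratio changed for Krt8 when scaled by shared peaks (0.06) and for Krt19 in total reads (-0.20), both within 2-fold. The covered length of the type I cluster had a KO to sg-Ctrl ratio of 0.271 to 0.318, except over keratin gene bodies alone, where it was 0.0219, and that of the type II cluster 1.99 to 2.98. With at least 50% of the gene body covered, 8 keratins had H3K27me3 in sg-Ctrl and 6 in KO. Of these, 0 of the type I cluster were left in KO, and 1 of the type II cluster in sg-Ctrl. The share of all genes at that cover is not given here, so these counts are not set against genes in general. At an FDR of at most 0.01 or a fold of at least 2, 0 keratins had a NUP210 peak, and the shares of all genes at these limits are not given. The median log2 ratio of H3K4me3 was -0.046 when scaled by the reads of shared peaks, -0.12 without scaling and -0.82 for total reads, beside medians of all genes of -0.08, -0.15 and -0.32, so that in total reads the keratins lay 0.49 below all genes and per kb they did not. With either of the first 2, 1 keratin had a ratio of at most 0.5, against 1.25% and 1.91% of all genes. The count was 2 in total reads (7.63% of genes) and 3 per kb with all peaks at a start summed (9.21%). The cause of these changes was not tested. Weak islands limit the counts: 2 type I keratins in sg-Ctrl are lost at a fold of 2.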
